A study of Mus musculus with 6 samples.

Results

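Colon of mice labelled GPR43 KO was compared with wild-type (WT) colon after ethanol. The comparison rests on 4 of the 6 arrays of the series: WT replicates 1 and 2, and GPR43 KO replicates 1 and 2, chosen by their titles. The remaining 2 arrays, labelled GPR41 KO, are on neither side of it. They entered the estimate of spread, the choice of probe set per gene and the principal components. All mice were C57BL/6, 6 to 8 weeks old, received ethanol by rectal injection, and gave colon tissue after 24 h. WT mice carried no named mutation. GPR43 KO mice carried a knockout whose allele, deleted part, breeding and littermate status are not given in the sources used here. No uninjected colon enters the comparison, so every difference is one between the labelled groups after ethanol. With 2 arrays per group, genotype cannot be told apart from other differences between these samples. Nothing in the labels states that replicates are separate animals, so the spread behind each p-value is that between these samples and may be technical.

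GPR43 is the product of Ffar2, a G protein-coupled receptor for acetate, propionate and butyrate, the short-chain fatty acids that bacteria make from fibre in the colon. It is found on neutrophils and other myeloid cells, on hormone-secreting cells and on the epithelium of the gut, and it couples to inhibitory and to calcium-mobilising G proteins. Ethanol in the rectum injures the mucosa, and injured mucosa releases chemokines that draw neutrophils and monocytes into the tissue.

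Gapdh read at its 3' end over its 5' end, which rises when RNA is degraded, gave ratios of 0.801 and 0.779 in WT and 0.858 and 0.778 in the arrays labelled GPR43 KO. Xist, the RNA of the inactive X chromosome, was high on the 4 arrays (13873 to 21106). On the first principal component of all genes, which held 39.6% of the variance, WT stood at -32.5 and -62.0 and the arrays labelled GPR43 KO at 17.1 and 25.5. On the second, with 17.2%, the array labelled GPR43 KO replicate 1 stood apart at -47.0, against -6.05 to 22.1 for the others.

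Ffar2 itself was low on only 1 of the arrays labelled GPR43 KO. The gene spans 30818031 to 30823775 of chromosome 7 in GRCm38.p6, and 2 probe sets read it. The stronger of them gave MAS5 signals of 1194 and 1118 in WT, 1598 on the array labelled GPR43 KO replicate 1 and 189.0 on replicate 2. The other gave 840.2 and 756.9 in WT, 1142 on the array labelled replicate 1 and 76.3 on replicate 2. The array labelled replicate 1 thus had 138% and 143% of the WT mean, and replicate 2 had 16.4% and 9.56%. The log2 fold change, on log2(signal + 18), was -1.02 ± 0.72 (SE, n = 2 per group, limma adjusted p = 0.586). With replicate 2 as the lone KO array it was -2.50 (adjusted p = 0.00198), and with the array labelled replicate 1 as the lone KO array it was 0.46 (adjusted p = 0.342). Such a fit takes the spread of a lone array from that within the other groups. A probe set outside the deleted part would check nothing, and where both lie relative to it is not given. Both were low on replicate 2 and high on the other array of the same label, and the cause was not tested. Because of this disagreement, calls that were lost with either array alone are named below, and the array with high Ffar2 is called the array labelled replicate 1.

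Across 18193 genes, 355 passed an adjusted p of 0.05 (1.95%): 120 were higher (0.66%) and 235 lower (1.29%) in GPR43 KO. Of these, 49 rose and 207 fell by more than 2-fold. At an unadjusted limma p under 0.05, 1462 genes were higher and 1272 lower. The array labelled replicate 1 alone against WT gave 71 calls (0.39%), 9 higher (0.0495%) and 62 lower (0.341%), and replicate 2 alone gave 116 (0.638%), 23 higher (0.126%) and 93 lower (0.511%). Calls shared by these single-array fits numbered 62, and 0 of them pointed in opposite directions. Both WT arrays lay outside the range of both GPR43 KO arrays for 8125 genes (44.7%), far more than passed the test. With 2 arrays a side, the smallest two-sided p of an exact permutation test is 0.333, so the calls rest on spread that limma shares between genes. They also rest on how it does so: without the trend of spread with intensity, 7 genes passed, namely Cxcl2, Ccl3, Cxcl3, Ptx3, Saa3, Il1b and Lcn2, all lower. A floor of 18 in place of the added 18 left 0 genes past the threshold (smallest adjusted p 0.0797, with 2747 genes at an unadjusted p under 0.05). Whichever of the 6 arrays was left out, 57 of the 355 calls held, 52 lower and 5 higher. Without WT replicate 1 the number of calls was 530, without WT replicate 2 it was 122, and with 1 GPR41 KO array left out, whichever it was, 219.

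**Figure D1:**
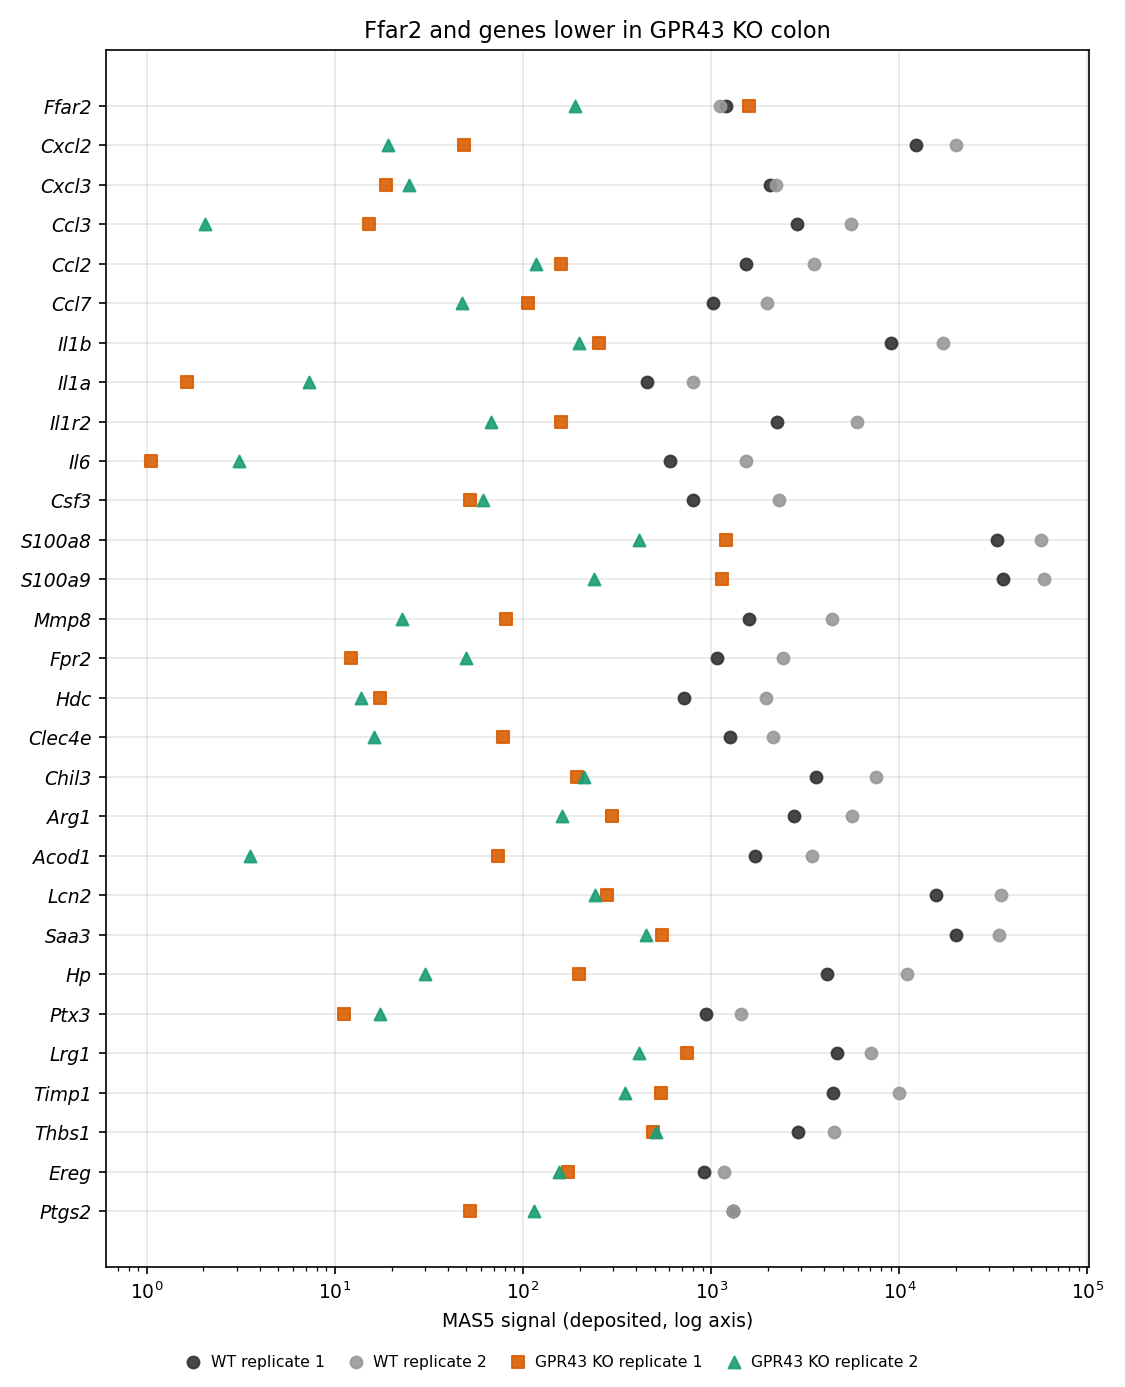
MAS5 signal on a log axis for Ffar2 and 28 genes that were lower in GPR43 KO, 1 point per array, WT as circles, the array labelled GPR43 KO replicate 1 as squares and replicate 2 as triangles. For Ffar2 only the triangle lies below the circles, at 189.0, while for the other genes the square and the triangle both lie below both circles.

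The 2 largest falls, of Cxcl2 and Ccl3, were in chemokines, the secreted signals that guide leukocytes. Of 23 measured chemokines for neutrophils and monocytes, 11 fell and 0 rose, against 1.29% of all genes lower. The median log2 fold change was -1.42 (0.02 over all genes), -1.37 on the array labelled replicate 1, -1.47 on replicate 2 and -2.19 without WT replicate 1. The array labelled replicate 1 alone called 6 of the 23, and replicate 2 alone called 8. Cxcl2, a main attractant of neutrophils, gave 12296 and 20041 in WT, 48.7 on the array labelled replicate 1 and 19.1 on replicate 2. Its log2 fold change was -8.30 ± 0.33 (adjusted p = 3.78e-05), with -7.88 and -8.73 for these arrays. Cxcl3, a neighbour of Cxcl2 with a like role, gave 2049 and 2208 in WT against 18.6 and 24.7 (-5.76 ± 0.35, adjusted p = 0.000257). In both genes the WT arrays were far above the KO arrays, and no KO array stood between the groups.

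Ccl3, an attractant of monocytes and neutrophils, gave 2856 and 5542 in WT and 15.2 and 2.03 in GPR43 KO (-7.28 ± 0.43, adjusted p = 0.000228). Both KO signals lie below the added 18, so the size of the fold is set by it: with 1 added it was -9.15, and with 72 added -5.66. The same limit holds for the folds of Il1a, Il6, Il11, Hdc, Ptx3 and Wfdc21 given below. It holds in part where 1 KO signal lies below 18, as in Fpr2, Acod1, Hcar2 and Sprr2h. The lower KO signals of Cxcl2 (19.1) and Cxcl3 (18.6) come near 18, so the added value bears on their folds too. Ccl2, the main attractant of monocytes, gave 1523 and 3505 against 159.5 and 116.7 (-3.91 ± 0.36, adjusted p = 0.00178). Ccl7, which shares receptors with Ccl2, gave 1016 and 1984 against 105.9 and 47.3 (-4.00 ± 0.42, adjusted p = 0.00259). These 5 calls held in every fit that left out an array. Cxcl5 and Ppbp, further ligands of the neutrophil receptor CXCR2, had log2 fold changes of -3.70 and -4.19. With the array labelled replicate 1 as the lone KO array, their adjusted p was 0.0573 and 0.0844, and that of Cxcl5 was 0.0665 without WT replicate 2. Cxcl1 fell by 1.77 on the log2 scale, a call lost without WT replicate 2 (0.075) or either KO array (0.0994 and 0.133). Averaged over its probe sets it was at -3.59. Ccl4 fell by 3.67 and passed neither with the array labelled replicate 1 alone (0.11) nor with replicate 2 alone (0.0524). Members that did not pass included Cxcl12, a chemokine of stromal cells, with 2325 and 3118 against 2304 and 2252, and Cxcl17, a mucosal chemokine, at 1.74 ± 0.37 (adjusted p = 0.0601).

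The bases before the start of Cxcl2, Cxcl3 and Il6 are shown because these genes were among the largest falls and their promoters hold a match to the NF-kB consensus, the site of a factor of inflammatory signalling. The sequences are the 250 bases 5' of the RefSeq start (GRCm38.p6), all on the + strand of chromosome 5, at 90903649 to 90903898, 90785851 to 90786100 and 30012864 to 30013113. Capitals mark the match. In Cxcl2 and Cxcl3 it is a pair of overlapping matches, 1 on each strand.
Cxcl2: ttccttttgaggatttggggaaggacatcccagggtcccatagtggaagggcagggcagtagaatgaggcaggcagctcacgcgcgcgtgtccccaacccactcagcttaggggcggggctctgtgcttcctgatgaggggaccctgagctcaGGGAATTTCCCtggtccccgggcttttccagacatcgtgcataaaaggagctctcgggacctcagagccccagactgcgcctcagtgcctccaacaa
Cxcl3: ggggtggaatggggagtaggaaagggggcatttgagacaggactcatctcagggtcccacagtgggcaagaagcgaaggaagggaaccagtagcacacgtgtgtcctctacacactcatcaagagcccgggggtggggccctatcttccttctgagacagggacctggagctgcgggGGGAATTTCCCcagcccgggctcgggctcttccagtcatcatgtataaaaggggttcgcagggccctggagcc
Il6: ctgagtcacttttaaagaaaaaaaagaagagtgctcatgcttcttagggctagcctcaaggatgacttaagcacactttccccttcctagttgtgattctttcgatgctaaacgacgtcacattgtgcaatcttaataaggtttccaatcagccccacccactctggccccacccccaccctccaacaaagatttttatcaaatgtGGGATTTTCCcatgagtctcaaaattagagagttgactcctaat
The match ended 86, 62 and 34 bases before the start. On either strand, the consensus occurred in 7.25% of 32851 mouse promoters of this length, in 8.56% of the 18109 of measured genes and in 13.6% of 228 promoters of genes lower in GPR43 KO (188 of 235 had an entry). It occurred in 6.40% of 125 promoters of genes that were higher, and in 6 of 14 promoters in the chemokine list. Of 2 further lists described below, neutrophil markers held it in 2 of 23 promoters (8.70%). Cholesterol synthesis genes, which lay higher in GPR43 KO, held it in 3 of 19 (15.8%). The AP-1 motif TGANTCA occurred in 6.75% of all promoters and in 14.5% of those of genes that were lower. These shares describe letters, not binding. Ccl3, Il1b, Lcn2, Saa3, Ptx3 and S100a9 held no NF-kB match in this window.

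Some cytokines that start and spread inflammation fell, and others did not pass. Of 20 genes of the interleukin 1 family, 6 fell and 0 rose (median -0.67), 3 with either KO array alone, and 3 without WT replicate 2. Il1b, the secreted alarm cytokine of activated myeloid cells, gave 9023 and 17120 in WT against 251.9 and 198.6 (-5.69 ± 0.27, adjusted p = 5.76e-05). Il1a gave 454.6 and 799.6 in WT and 1.63 and 7.27 in GPR43 KO (-4.80 ± 0.44, adjusted p = 0.00178). Il1r2, the decoy receptor that neutrophils carry, gave 2225 and 5935 against 158.7 and 67.6 (-4.89 ± 0.48, adjusted p = 0.0021). Il33, an alarmin of stromal and epithelial cells, fell by 2.30, a call lost with either KO array alone (0.112 and 0.0821) or without WT replicate 2 (0.0616). Il18, made by the epithelium, was on the other side: 3379 and 3013 in WT against 4377 and 4792 (0.52 ± 0.12, adjusted p = 0.0664).

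Il6, an inducer of the acute phase, gave 606.6 and 1529 in WT and 1.05 and 3.09 in GPR43 KO (-5.62 ± 0.56, adjusted p = 0.00212). With 1 added in place of 18 the fold was -8.38, and with 72 added -3.81. Csf3, the growth factor that releases neutrophils from marrow, gave 802.8 and 2289 against 52.5 and 61.6 (-4.20 ± 0.44, adjusted p = 0.00256), and was the 1 gene of 12 in the IL-17, IL-22 and IL-23 axis to pass. Il11, a relative of Il6 from stromal cells, fell by 4.69, which did not pass with either KO array alone (0.0719 and 0.0521). Of 17 genes of the IL-6 family and its STAT3 response, 3 fell and 0 rose (median -0.80, and -1.22 without WT replicate 1), 1 with the array labelled replicate 1 alone, 2 with replicate 2 alone and 8 without WT replicate 1. Tnf gave 201.2 and 253.7 in WT and 13.8 and 80.7 in GPR43 KO and did not pass (-2.12 ± 0.54, adjusted p = 0.0975). At an unadjusted limma p under 0.05, 1 of the 27 interferon response genes was higher and 1 lower, against 1462 and 1272 of all 18193 genes. After adjustment 0 of the 27 passed, and the median was -0.34. It was -0.07 with the array labelled replicate 1 alone, -0.49 with replicate 2 alone and 0.01 without WT replicate 2. The lowest, Cxcl10, gave 276.3 and 333.7 against 7.96 and 85.5 (adjusted p = 0.0734), and passed with the array labelled replicate 1 alone (0.0365).

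Genes of neutrophils were lower on both KO arrays. Of 25 measured neutrophil markers, 15 fell and 0 rose, with a median of -2.66, 9 on the array labelled replicate 1 alone (median -2.66) and 11 on replicate 2 alone (median -3.21). Their summed signal was 101571 and 192464 in WT, 7657 on the array labelled replicate 1 and 5318 on replicate 2. Most of the WT sum came from S100a8, S100a9 and Lcn2 (15634 and 34828 in WT for Lcn2), so it describes few of the 25 markers. Lcn2 also stands on the list of acute phase genes. S100a8 and S100a9 form calprotectin, the bulk protein of neutrophil cytosol. S100a9 gave 35541 and 58734 in WT, 1147 on the array labelled replicate 1 and 239.2 on replicate 2 (-6.38 ± 0.59, adjusted p = 0.00178). S100a8 gave 32866 and 56389 against 1202 and 414.4 (-5.89 ± 0.43, adjusted p = 0.000761). The array labelled replicate 1 kept more of both transcripts than replicate 2 and was still far below both WT arrays. In bulk tissue, fewer cells of a type and less RNA per cell cannot be told apart.

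Mmp8, the collagenase of neutrophil granules, gave 1593 and 4405 against 80.9 and 22.8 (-5.39 ± 0.54, adjusted p = 0.0022). Ngp, a protein of secondary granules, gave 1420 and 7714 against 62.0 and 71.1 (-5.30 ± 0.64, adjusted p = 0.00566), a call lost with either KO array alone (0.0685 and 0.0543). Fpr2, a receptor for formyl peptides, gave 1070 and 2412 against 12.1 and 49.7 (-5.17 ± 0.50, adjusted p = 0.0021). Hdc, the enzyme that makes histamine, gave 715.6 and 1962 against 17.4 and 13.8 (-5.17 ± 0.49, adjusted p = 0.00206). The lectin receptors Clec4e and Clec4d fell by 4.85 and 3.55. Apart from Ngp, the calls named here held whichever array was left out. Cd177, a surface protein of neutrophils, did not move with them: it gave 1999 and 2167 in WT and 2410 and 2638 in GPR43 KO (adjusted p = 0.444).

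Among 23 markers of macrophages and monocytes, 10 fell and 0 rose, 2 with the array labelled replicate 1 alone, 3 with replicate 2 alone and 6 without WT replicate 2. Chil3, a secreted lectin of activated macrophages and neutrophils, gave 3603 and 7535 in WT against 194.3 and 211.6 (-4.57 ± 0.31, adjusted p = 0.000499). Arg1, an arginine-consuming enzyme, gave 2764 and 5627 against 295.3 and 160.5 (-4.07 ± 0.37, adjusted p = 0.00178). Acod1, which makes itaconate in stimulated macrophages and is not on the list, gave 1715 and 3433 against 73.2 and 3.53 (-5.79 ± 0.64, adjusted p = 0.00351). Fcgr3, an Fc receptor, Cd14, the co-receptor of endotoxin, and Itgam, an integrin of myeloid cells, fell by 2.03, 2.03 and 2.07. With the array labelled replicate 1 alone their adjusted p was 0.0856, 0.104 and 0.191. With replicate 2 alone Cd14 (0.0521) and Itgam (0.107) were lost too, and Itgam also without WT replicate 2 (0.187). Of the 23, 20 were below 0, against 8637 of all 18193 genes. The median of the 23 was -1.06, with -0.82 on the array labelled replicate 1 and -0.98 on replicate 2. Those that did not pass ran from -1.50 (Fcgr1, limma adjusted p = 0.0647) to 0.32. Members with overlapping groups, chosen after their values were seen, included Csf1r, the growth factor receptor of macrophages, with 2189 and 3072 against 2519 and 2108, and C1qa, a complement subunit, with 1840 and 2893 against 2249 and 2127. Mrc1, the mannose receptor, gave 531.7 and 697.0 against 597.4 and 516.4. Their log2 fold changes were -0.17, -0.08 and -0.13, and C1qb was at -0.42 (adjusted p = 0.341).

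Acute phase proteins and lipocalins, which bind iron, haem, lipids or bacterial products, fell in 9 of 21 measured cases, and 0 rose (median -1.24; -1.24 on the array labelled replicate 1 and -1.43 on replicate 2). Either KO array alone called 6, as did the fit without WT replicate 2. Lcn2, which withholds iron from bacteria, gave 15634 and 34828 in WT against 279.5 and 240.8 (-6.40 ± 0.31, adjusted p = 5.76e-05). Saa3, the serum amyloid made in inflamed tissue, gave 19930 and 33708 against 545.8 and 451.6 (-5.66 ± 0.24, adjusted p = 3.78e-05). Saa1, its relative, was equally high throughout: 28487 and 25021 in WT and 29062 and 25018 in GPR43 KO (0.01 ± 0.16, adjusted p = 0.983). Hp, the haemoglobin binder, gave 4139 and 10957 against 197.3 on the array labelled replicate 1 and 30.3 on replicate 2 (-6.05 ± 0.66, adjusted p = 0.00314). Ptx3, a soluble pattern receptor, gave 938.5 and 1440 against 11.1 and 17.5 (-5.20 ± 0.37, adjusted p = 0.000607); averaged over its probe sets the change was -2.11.

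Lrg1, a glycoprotein of inflamed vessels, and Serpina3n, a protease inhibitor, fell by 3.33 and 2.70 (-2.91 and -2.81 on the array labelled replicate 1, -3.74 and -2.60 on replicate 2). Wfdc21, a protease inhibitor of the whey acidic family, gave 1799 and 4537 in WT against 8.78 and 5.75 (-6.83 ± 0.56, adjusted p = 0.00146). With 1 added in place of 18 this fold was -8.46, and with 72 added -5.21. Sprr2h, a small proline-rich epithelial protein, gave 1010 and 1985 against 35.8 and 17.8 (-5.03 ± 0.43, adjusted p = 0.0015). All of these falls held whichever array was left out.

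Genes of tissue repair and matrix turnover were lower in 13 of 25 cases and higher in 0 (median -1.52; -1.72 on the array labelled replicate 1 and -1.46 on replicate 2). That array alone called 6, replicate 2 alone 5, and 7 were called without WT replicate 2. Timp1, an inhibitor of metalloproteinases, gave 4458 and 9920 against 538.0 and 347.9 (-3.89 ± 0.34, adjusted p = 0.0015). Thbs1, a matrix protein of wounds, fell by 2.81 ± 0.23 and Ereg, an EGF-like growth factor of regenerating epithelium, fell by 2.53 ± 0.23. Thbs1 was at -2.84 on the array labelled replicate 1 and -2.79 on replicate 2, and Ereg at -2.46 and -2.61. These 3 calls held in every fit with an array left out. Mmp3, a stromelysin, and Plaur, the urokinase receptor, fell by 3.14 and 2.51. Both were lost with either KO array alone (0.0945 and 0.0624 for Mmp3, 0.083 and 0.129 for Plaur) and without WT replicate 2 (0.0575 and 0.0695). Mmp9, the gelatinase of neutrophils, fell by 2.52 and reached 0.0549 with the array labelled replicate 1 alone.

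Ptgs2, the inducible enzyme of prostaglandin synthesis, gave 1304 and 1308 in WT, 52.5 on the array labelled replicate 1 and 114.0 on replicate 2 (-3.78 ± 0.33, adjusted p = 0.0015). The WT arrays hardly differed here, whereas the median neutrophil marker was 1.02 higher on WT replicate 2 than on WT replicate 1 on the log2 scale. Alox5ap, which presents arachidonate for leukotriene synthesis, fell by 2.96 ± 0.28, from 3760 and 7744 to 731.9 and 629.0. Of 21 genes of these pathways, 2 fell and 1 rose. The riser was the phospholipase Pla2g3, at 2.01 ± 0.33 from weak WT signals of 79.4 and 48.0. It was lost in every fit with an array left out except that without WT replicate 1, with adjusted p from 0.0527 to 0.196.

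Of 25 immediate early and MAP kinase feedback genes, which respond first to stress and growth signals, 4 fell and 0 rose, 2 with either KO array alone and 7 without WT replicate 1. Ier3, an early survival gene, gave 4068 and 7438 against 913.4 and 715.4 (-2.74 ± 0.27, adjusted p = 0.00212), and Dusp5, a phosphatase of ERK, gave 634.6 and 906.3 against 154.2 and 169.4 (-2.11 ± 0.24, adjusted p = 0.0044). Dusp1 fell by 1.76 and was lost with either KO array alone (0.0915 and 0.0967). Fos and Jun, the AP-1 subunits, did not pass: Fos gave 3391 and 3848 against 4166 and 4616, and Jun gave 2476 and 2566 against 2802 and 3051. Hmox1, which breaks down haem, fell by 3.03 ± 0.47, more on replicate 2 (106.8) than on the array labelled replicate 1 (348.5), where alone its adjusted p was 0.083. It was 0.11 without WT replicate 2. Hspb1, a small heat shock protein, fell by 1.36. Its call was lost with the array labelled replicate 1 alone (0.133), without WT replicate 2 (0.0895) and without either GPR41 KO array (0.0527 and 0.0524).

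Of 20 endothelial markers 2 fell, the adhesion genes Selp and Icam1, and 0 rose, against 1.29% and 0.66% of all genes. Selp, the selectin on which leukocytes roll, gave 688.2 and 1205 against 245.2 and 131.5 (-2.23 ± 0.34, adjusted p = 0.0154), and was lost with the array labelled replicate 1 alone (0.13) or without WT replicate 2 (0.121). Icam1, to which leukocytes hold firmly, fell by 1.53 and was lost with either KO array alone (0.225 and 0.163), without WT replicate 2 (0.242) or without GPR41 KO replicate 2 (0.053). Of 20 genes of TNF signalling and NF-kB feedback 2 fell and 0 rose, 0 with either KO array alone and 0 without WT replicate 2. Tnfaip3, a brake on NF-kB, fell by 0.79, a call lost in each fit with an array left out except that without WT replicate 1 (0.0988 to 0.242). Tnfrsf1b, a TNF receptor of leukocytes and endothelium, fell by 1.18 and was lost with either KO array alone (0.113 and 0.0965) or without WT replicate 2 (0.0997).

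Among receptors and carriers of short-chain fatty acids and related metabolites, 3 of 16 fell and 0 rose. Calls were fewer with the array labelled replicate 1 alone or without WT replicate 2. The median was 0.17, with 0.08 on the array labelled replicate 1 and 0.27 on replicate 2. Hcar2, a receptor of butyrate and niacin, gave 853.5 and 1377 in WT, 78.3 on the array labelled replicate 1 and 3.78 on replicate 2 (-4.59 ± 0.62, adjusted p = 0.00918). It passed with either KO array alone (0.0227 and 0.0034) and did not without WT replicate 2 (0.078). Gpr84, a receptor of medium-chain fatty acids on myeloid cells, fell by 2.64, a call lost in each fit with an array left out except that without WT replicate 1 (0.0568 to 0.196). Emb, a chaperone of lactate carriers, fell by 2.19 and reached 0.0719 with the array labelled replicate 1 alone. Averaged over its probe sets it was at -1.43 and did not pass. Of 21 G protein and arrestin partners of such receptors 0 passed in limma, with 2 higher and 3 lower at an unadjusted p under 0.05 (median -0.12, and -0.06 without WT replicate 2). Of 15 genes of ethanol and acetaldehyde metabolism 0 passed, with 5 higher and 1 lower at that level (median 0.26, and 0.09 without WT replicate 2). At that level 1462 of all 18193 genes were higher and 1272 lower.

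**Figure D2:**
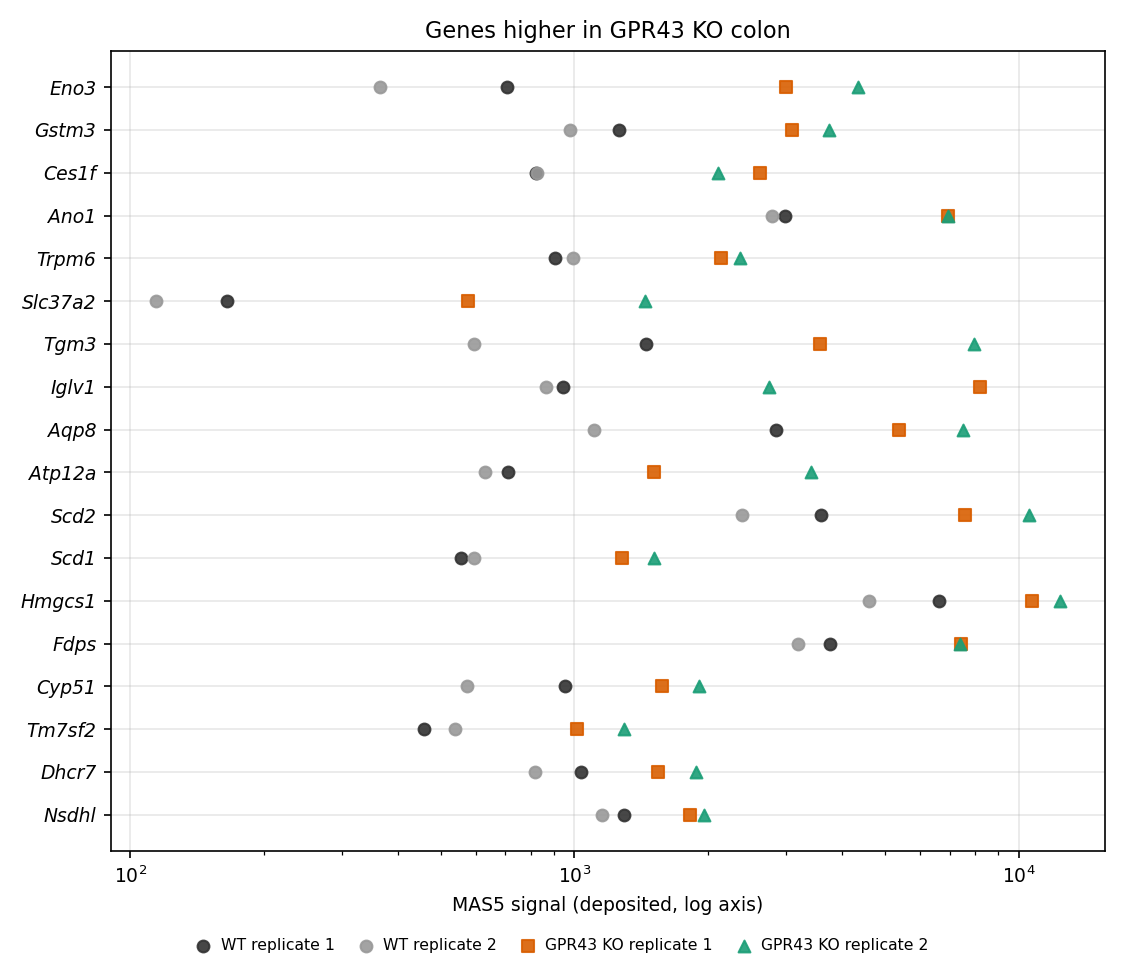
MAS5 signal on a log axis for 18 genes that were higher in GPR43 KO, with the same symbols as for the falls. Squares and triangles lie to the right of both circles in every gene, and the gaps are smaller than those of the falls.

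The rises were fewer and smaller. The 5 that held whichever array was left out were Eno3, Gstm3, Ano1, Ces1f and Trpm6. Eno3, the muscle-type enolase of glycolysis, gave 705.8 and 365.1 in WT, 2992 on the array labelled replicate 1 and 4359 on replicate 2 (2.79 ± 0.28, adjusted p = 0.0022), the largest rise among called genes. Gstm3, a glutathione transferase, gave 1260 and 976.4 against 3084 and 3739 (1.60 ± 0.16, adjusted p = 0.0021). Ces1f, a carboxylesterase, gave 818.3 and 825.8 against 2625 and 2108 (1.50 ± 0.15, adjusted p = 0.00253). Ano1, a calcium-activated chloride channel of pacemaker cells and secretory epithelium, gave 2984 and 2792 against 6933 and 6944 (1.26 ± 0.11, adjusted p = 0.00178). Trpm6, the magnesium channel of the colon surface, gave 906.4 and 991.4 against 2136 and 2355 (1.23 ± 0.12, adjusted p = 0.0021). Apart from Eno3, the WT arrays lay close together in these genes, and so did the KO arrays.

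Other large rises rested on particular arrays. Slc37a2, a sugar phosphate exchanger, gave 164.9 and 114.4 in WT, 577.6 on the array labelled replicate 1 and 1441 on replicate 2 (2.58 ± 0.38, adjusted p = 0.0131). With the array labelled replicate 1 alone its adjusted p was 0.0685, and without WT replicate 2 it was 0.0825. Tgm3, a transglutaminase of surface epithelium, gave 1448 and 594.3 against 3575 and 7934 (2.50 ± 0.43, adjusted p = 0.0239), lost with the array labelled replicate 1 alone (0.193), without WT replicate 2 (0.0923) and without either GPR41 KO array (0.0659 and 0.0655). Mfap4, a matrix protein, rose by 2.29 from weak signals of 37.0 and 29.4, and was lost with either KO array alone (0.149 and 0.0858) or without WT replicate 2 (0.0751). Reg4, a secreted lectin of goblet and hormone cells, gave 2499 and 1696 against 8616 and 7543 (1.96 ± 0.36, adjusted p = 0.034), and was lost with either KO array alone (0.209 and 0.203) or without WT replicate 2 (0.189).

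Car3, a carbonic anhydrase of fat and muscle, gave 136.2 and 240.0 in WT and 1213 and 571.5 in GPR43 KO (2.09 ± 0.34), highest on the array labelled replicate 1. It passed with that array alone (0.025), not with replicate 2 alone (0.107), not without WT replicate 1 (0.0521) or either GPR41 KO array (0.0621 and 0.0608), and it averaged 0.90 over its probe sets. Iglv1, a variable segment of the lambda light chain, gave 941.4 and 862.3 against 8189 and 2750 (2.37 ± 0.41, adjusted p = 0.0246). It passed with either KO array alone (0.00271 and 0.025). It did not without WT replicate 1 (0.0514), WT replicate 2 (0.13) or either GPR41 KO array (0.061 and 0.0604), and it averaged 1.32 over its probe sets. Such segments share sequence with each other, so the probe set may read several.

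Genes of cholesterol synthesis lay higher as a group. All 20 measured members had a log2 fold change above 0, against 9556 of all 18193 genes. The 20 were also above 0 on the array labelled replicate 1 alone and on replicate 2 alone. The median was 0.70, 0.55 on the array labelled replicate 1 and 0.84 on replicate 2. In limma 6 of the 20 rose (0.66% of all genes did) and 0 fell, but 0 passed with the array labelled replicate 1 alone (11 at an unadjusted p under 0.05), 1 with replicate 2 alone, 2 without WT replicate 2 and 2 without either GPR41 KO array. Hmgcs1, which makes the precursor of mevalonate, gave 6607 and 4617 in WT against 10699 and 12372 (1.06 ± 0.18, adjusted p = 0.022). Fdps, farnesyl diphosphate synthase, gave 3762 and 3191 against 7421 and 7402 (1.09 ± 0.15, adjusted p = 0.00832); averaged over its probe sets the change was 0.50 and did not pass. Cyp51 and Tm7sf2, enzymes of sterol ring processing, rose by 1.21 and 1.17, Dhcr7, which makes cholesterol from its last precursor, by 0.88, and Nsdhl by 0.62. With the array labelled replicate 1 alone the adjusted p of these 6 ran from 0.101 (Fdps) to 0.286 (Nsdhl). Tm7sf2 was the 1 that passed with replicate 2 alone (0.0315), where the others ran from 0.0788 to 0.169.

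The promoter of Hmgcs1 is shown as the only one of 19 cholesterol synthesis promoters with the sterol element TCACNCCAC, which binds the factors that switch on this pathway. It is the 250 bases before the RefSeq start on chromosome 13 at 119690101 to 119690350, + strand (GRCm38.p6), and capitals mark the match, which ended 128 bases before the start.
Hmgcs1: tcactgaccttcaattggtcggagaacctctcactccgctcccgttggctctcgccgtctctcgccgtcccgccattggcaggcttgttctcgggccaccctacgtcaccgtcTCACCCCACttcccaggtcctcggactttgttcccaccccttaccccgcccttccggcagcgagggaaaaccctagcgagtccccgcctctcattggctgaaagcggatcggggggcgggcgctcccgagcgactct
On either strand the element occurred in 1.05% of all promoters of this length, so 1 of 19 (5.26%) is a description of few promoters.

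Enzymes that desaturate fatty acids rose too. Scd2 gave 3589 and 2383 against 7571 and 10570 (1.61 ± 0.23, adjusted p = 0.0108), and Scd1, its paralog, gave 555.6 and 595.9 against 1280 and 1508 (1.25 ± 0.13, adjusted p = 0.00314). With the array labelled replicate 1 alone their adjusted p was 0.124 and 0.0503. Of 16 lipogenesis genes 3 rose and 0 fell, and the 3 calls were lost with the array labelled replicate 1 alone. The median was 0.40, with 0.39 on the array labelled replicate 1 and 0.41 on replicate 2. The detoxifying enzymes Gstm1 and Nqo1 rose by 0.97 and 0.90. Both were lost with the array labelled replicate 1 alone (0.137 and 0.129) and without WT replicate 2 (0.0694 and 0.0835), and Nqo1 also with replicate 2 alone (0.142).

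Markers of absorptive colonocytes rose in 3 of 28 cases and fell in 0, against 0.66% and 1.29% of all genes. The median was 0.45, 0.54 on the array labelled replicate 1, 0.43 on replicate 2 and 0.18 without WT replicate 2. The risers were Aqp8, a water channel of the colon surface, Atp12a, the colonic proton and potassium pump, and Cyp2c55, a cytochrome of colon epithelium. Atp12a gave 709.8 and 627.9 in WT, 1513 on the array labelled replicate 1 and 3407 on replicate 2 (1.74 ± 0.30, adjusted p = 0.0268). It passed with either KO array alone (0.039 and 0.00198), not without WT replicate 2 (0.143) or either GPR41 KO array (0.0695 and 0.0693). Aqp8 gave 2840 and 1106 against 5394 and 7516 (1.83 ± 0.36, adjusted p = 0.0429), and Cyp2c55 gave 22490 and 31459 against 56443 and 52254 (1.03 ± 0.20, adjusted p = 0.0405). Both passed in only 1 of the 6 fits with an array left out, Aqp8 without WT replicate 1 and Cyp2c55 without WT replicate 2. The count of 3 became 10 without WT replicate 1, 1 without WT replicate 2 or with either KO array alone, and 0 without either GPR41 KO array.

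Goblet cell markers leaned the same way, with 18 of 19 above 0, against 9556 of all 18193 genes. Their median was 0.49, with 0.56 on the array labelled replicate 1 and 0.50 on replicate 2. Only 1 of them passed, the sialyltransferase St3gal4 at 0.85 ± 0.17 (limma adjusted p = 0.0497). Its call was lost in each fit with an array left out except that without WT replicate 1. Muc2, the mucin of the inner mucus layer, gave 38837 and 47373 in WT against 59046 and 49571 (adjusted p = 0.484). The hormone genes of L cells diverged: Gcg, the glucagon-like peptide precursor, fell by 0.89 ± 0.16 (adjusted p = 0.0291) and Insl5 rose by 0.65 ± 0.13 (adjusted p = 0.0437). Both calls were lost with either KO array alone (0.225 and 0.16 for Gcg, 0.292 and 0.151 for Insl5) and without either GPR41 KO array (0.067 to 0.0938), and Insl5 without WT replicate 2 (0.197).

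Of 23 proliferation genes (median 0.22) 2 fell and 0 rose, against 1.29% and 0.66% of all genes. Rrm2, which makes deoxynucleotides, fell by 0.89 and was lost with either KO array alone (0.112 and 0.0788) or without WT replicate 2 (0.0681). Mcm3, a subunit of the replicative helicase, fell by 0.71 and was lost in every fit with an array left out (0.0678 to 0.245). Mki67, the common marker of cycling cells, was at 0.22 and did not pass. Of 17 crypt stem cell and Wnt target genes (median -0.01) 2 fell and 0 rose, against the same shares of all genes. Olfm4, a secreted glycoprotein of crypt cells, gave weak signals of 79.1 and 198.5 in WT against 1.45 and 4.82, and Cd44, an adhesion receptor, gave 2264 and 2953 against 1427 and 1390. Their log2 fold changes were -2.78 and -0.87, and the size of the first is again set by the added 18. Both calls were lost in each fit with an array left out except that without WT replicate 1 (0.0557 to 0.264). The stem cell receptor Lgr5 was at 0.21 and did not pass.

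Genes of the muscle coat leaned to higher values. Of 19 smooth muscle markers 18 were above 0, against 9556 of all 18193 genes. The median was 0.40, with 0.50 on the array labelled replicate 1 and 0.23 on replicate 2. In limma 2 rose (0.66% of all genes did): Actg2, enteric actin, at 0.88 ± 0.15, and Smtn, smoothelin, at 0.85 ± 0.16. The summed signal of the markers was 133130 and 156201 in WT, 214870 on the array labelled replicate 1 and 186427 on replicate 2. Its part in the other results was not tested. Neither gene passed with a KO array alone (0.164 and 0.168 for Actg2, 0.186 and 0.205 for Smtn). Without WT replicate 2 they stood at 0.0907 and 0.0709, Smtn at 0.0861 without WT replicate 1, and Actg2 at 0.0574 and 0.0552 without the GPR41 KO arrays.

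Of 16 T and NK cell markers 1 rose, Zap70, a kinase of T cell receptor signalling, at 0.97 (adjusted p = 0.0323). Zap70 was lost in each fit with an array left out except that without WT replicate 1 (0.0692 to 0.247), and averaged 0.28 over its probe sets. Igha, the heavy chain of IgA, gave 27334 and 29451 in WT against 62115 and 45221 (0.90 ± 0.19, adjusted p = 0.0593), and Jchain, which joins IgA units, gave 7798 and 4073 against 14626 and 11138 (adjusted p = 0.0818). H2-Ab1, a chain of MHC class II, gave 2069 and 743.9 against 4776 and 3729 (1.75 ± 0.40, adjusted p = 0.0718), and Cd74, the invariant chain, 4542 and 3866 against 8250 and 6324 (adjusted p = 0.0677). The groups did not overlap in these 4 genes, as in 44.7% of all genes, and each was highest on the array labelled replicate 1. Lyz1, the lysozyme of Paneth cells, fell by 1.14 ± 0.19 and averaged -0.41 over its probe sets. It was at -1.29 on the array labelled replicate 1 and -0.98 on replicate 2. Its call was lost with either of these arrays alone or without WT replicate 2. Lyz1 also stands on the list of macrophage and monocyte markers, among the 10 that fell.

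**Figure D3:**
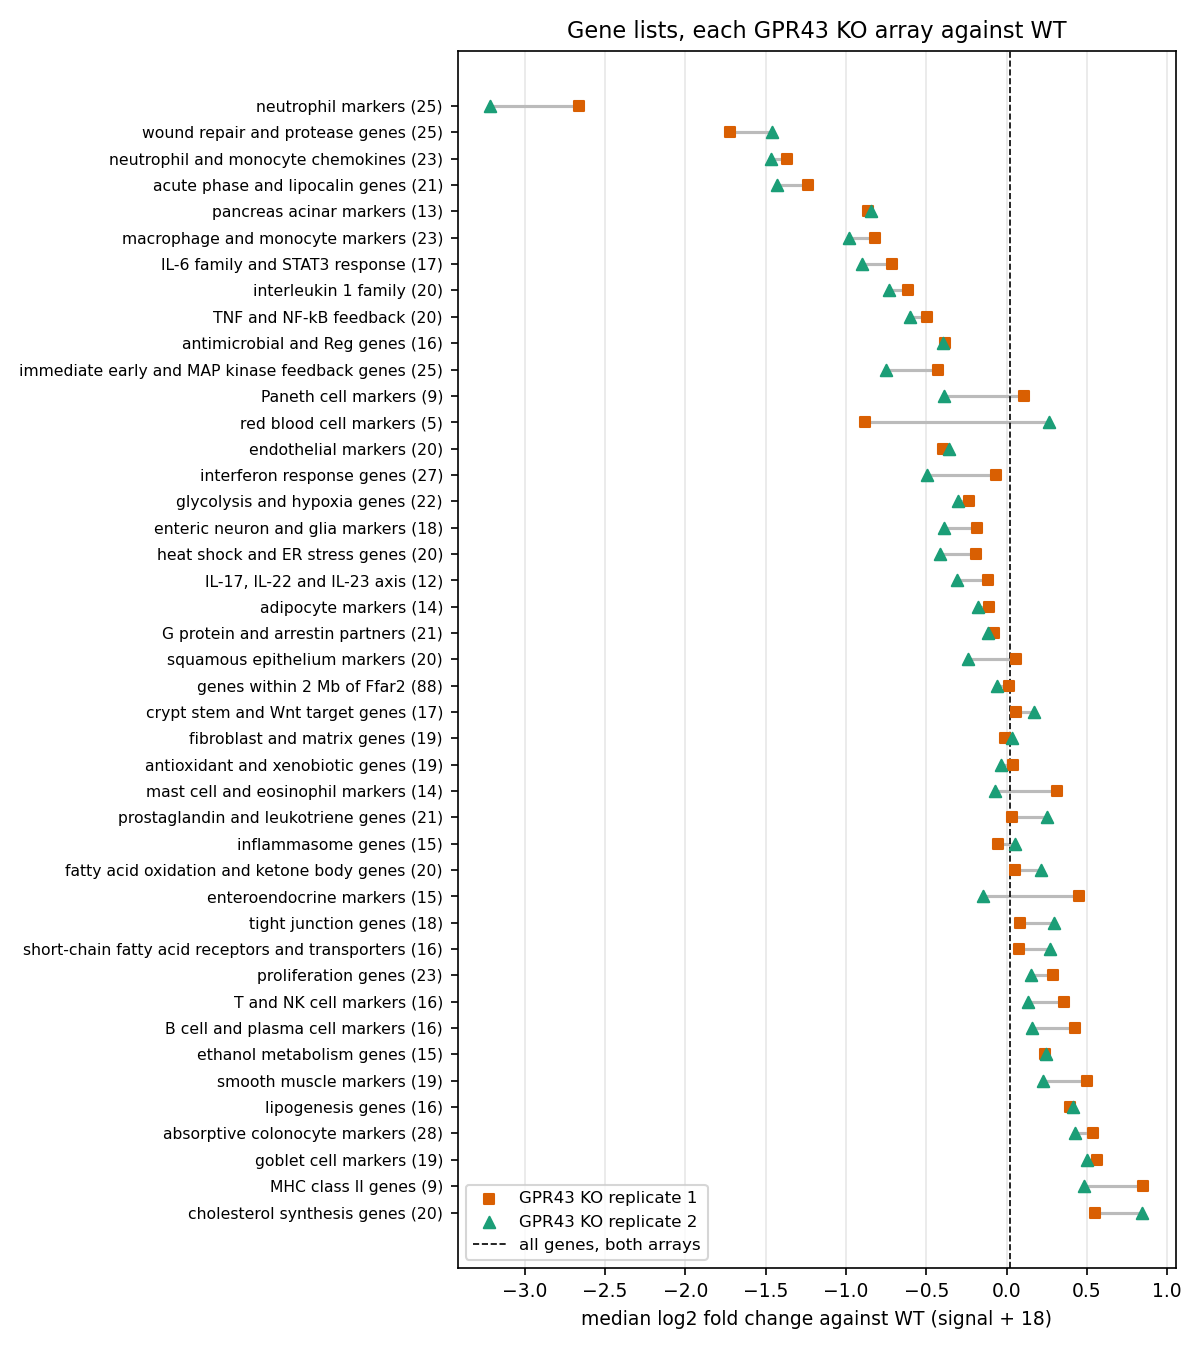
Median log2 fold change against WT of each list with 5 or more measured genes, counts in brackets, for the array labelled GPR43 KO replicate 1 (squares) and replicate 2 (triangles), with the median of all genes dashed (0.02). Neutrophil markers lie farthest left on both arrays (-2.66 and -3.21) and cholesterol synthesis genes lie right of the dashed line on both (0.55 and 0.84).

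Set directly against each other, the arrays labelled GPR43 KO differed by more than 2-fold in 69 of the 9096 genes above the median level (0.759%), 29 higher and 40 lower on replicate 2. The same count was 109 for the WT pair and 86 for the GPR41 KO pair. Over all 18193 genes the order was another: 1684 for the GPR43 KO pair, 1544 for WT and 1525 for GPR41 KO, with SDs of the log2 difference of 0.564, 0.562 and 0.533. Ffar2 had the largest fall from the array labelled replicate 1 to replicate 2 (-2.96 on the log2 scale). Clec2d, a lectin ligand of an NK cell receptor, was next after Ang4: 2933 and 2116 in WT, 1945 on the array labelled replicate 1 and 306.0 on replicate 2. Among the largest gains on replicate 2 was that of Lpo, lactoperoxidase, which gave 1159 and 1175 in WT, 1070 on the array labelled replicate 1 and 7738 on replicate 2. These differences are descriptions, since 1 array stands on each side.

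Within 15 Mb of Ffar2 on chromosome 7, 5 of 218 genes above the median level differed more than 2-fold between the arrays labelled GPR43 KO, Ffar2 included (2.29%, against 0.759% of all genes above that level). The WT arrays differed as much in 4 of the 218 (1.83%, against 1.20% of all) and the GPR41 KO arrays in 0. Ffar2 was known to differ before the window was set around it, so its place in the count was fixed in advance. Without Ffar2 the count of the GPR43 KO pair equals that of the WT pair. Besides Ffar2, the 5 genes of the GPR43 KO pair were Igsf23, Apoc2, Cyp2f2 and Dmkn. Relative to Ffar2, Igsf23 and Apoc2 lie at -10.9 and -11.1 Mb and Cyp2f2 at -3.69 Mb. Igsf23, an immunoglobulin-domain membrane protein, gave 465.2 and 412.1 in WT, 461.4 on the array labelled replicate 1 and 1631 on replicate 2. Apoc2, the activator of lipoprotein lipase, gave 568.9 and 587.0 in WT, 273.9 on the array labelled replicate 1 and 1093 on replicate 2. Cyp2f2, a cytochrome, gave 150.4 and 66.6 in WT, 188.7 and 773.3. In all 3 replicate 2 was above both WT arrays, whereas the array labelled replicate 1 was below them in Apoc2 and near or just above them in the others. The GPR41 KO arrays were above both WT arrays too: 2546 and 1947 for Igsf23, 1106 and 1244 for Apoc2, 576.0 and 453.8 for Cyp2f2. The rise was thus not particular to replicate 2.

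**Figure D4:**
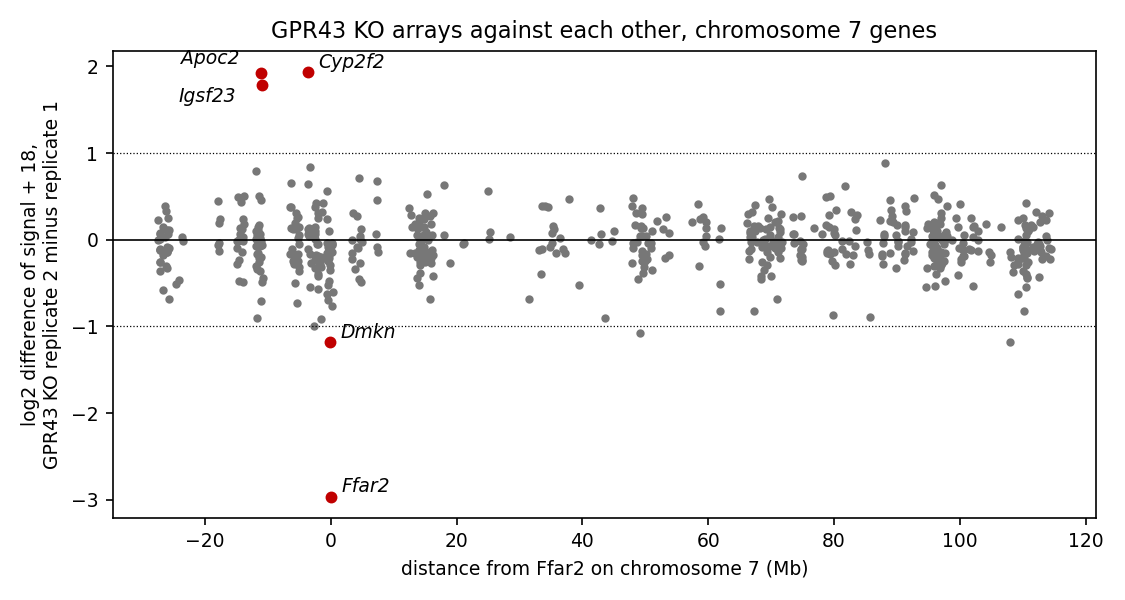
Log2 difference of signal + 18 between replicate 2 and the array labelled GPR43 KO replicate 1 for genes of chromosome 7 above the median level, against distance from Ffar2 in Mb, with 2-fold marked by dotted lines. Ffar2 lies at -2.96, Igsf23, Apoc2 and Cyp2f2 lie above the upper line, and the other genes outside the lines are all on the lower side.

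Of the 88 genes measured within 2 Mb of Ffar2, 1 rose and 3 fell, against 0.66% and 1.29% of all genes. With the array labelled replicate 1 alone 0 passed, and with replicate 2 alone 0 rose and 2 fell. Dmkn, dermokine, gave 840.4 and 1248 in WT, 242.3 on the array labelled replicate 1 and 96.9 on replicate 2 (-2.59 ± 0.38, adjusted p = 0.0126). It was lost with the array labelled replicate 1 alone (0.0643) or without WT replicate 2 (0.0964). Its neighbour Sbsn gave 446.9 and 395.0 against 208.1 and 61.6 and did not pass (adjusted p = 0.119), but passed with replicate 2 alone (0.0392; 0.362 with the array labelled replicate 1 alone). On the GPR41 KO arrays Dmkn gave 251.0 and 196.8 and Sbsn 102.8 and 87.8, also below both WT arrays. Both genes are on the list of 20 measured squamous epithelium markers, of which 1 fell (Dmkn) and 0 rose. The part of squamous tissue in these values was not tested. Tyrobp, the signal adaptor of myeloid receptors, and Fxyd5, a subunit of the sodium pump, fell by 1.86 and 1.45. Both were lost with either KO array alone (0.119 and 0.0674 for Tyrobp, 0.149 and 0.104 for Fxyd5), and Fxyd5 without WT replicate 2 (0.0571). Capn12, a calpain, rose by 1.87 from 32.9 and 41.6 to 143.7 and 233.4, and was lost in every fit with an array left out (0.0921 to 0.286).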

How the data were processed

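Total RNA of mouse colon (2 µg per sample) was labelled with biotin and hybridised to Affymetrix mouse 430 2.0 arrays, 1 per sample, per the labels. The authors deposited 1 intensity per probe set and array, made with MAS5 per the submitters' processing notes, with no version given in the sources used here. A MAS5 intensity is a background-subtracted summary on a linear scale, scaled between arrays, so weak values are mostly background.

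Of 45101 probe sets, 34945 were not controls and carried 1 gene symbol in the array annotation. The probe set with the highest mean over the 6 arrays stood for each gene, which gave 18193 genes, with no filter on weak signal. After adding 18, about the 20th percentile of all values, log2 values were fitted with limma 3.58.1 in R 4.3.3 (lmFit, eBayes with intensity trend), 1 mean per group over all 6 arrays, with 3 residual degrees of freedom. Tests were two-sided with Benjamini-Hochberg adjustment over all genes and a threshold of 0.05. Errors with ± are standard errors of this fit. Each GPR43 KO array was also fitted without the other. On simulated data with 200 shifted genes, the fit recovered 5.1% of log2 shifts of 1, 54% of shifts of 2 and 90.4% of shifts of 4. False calls per draw were 0, 2.8 and 6. A gene that did not pass may therefore still differ.

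The members and lists (44) were chosen with earlier results of these data known, so lists are described by counts and medians without a test. Over all genes 0.66% were called higher and 1.29% lower, the shares against which each count of called members stands. Named genes came from a rule: the 20 largest rises and falls, up to 4 members of each list by smallest p, neighbours of Ffar2, genes that differ most between the KO arrays, and genes in counts of 5 or fewer. Further members of lists, and Acod1, were chosen after their values were seen. Replicate numbers were not used to pair the arrays in the main fit. Over all genes, the deviations of WT and GPR43 KO correlated at -0.08. Weak genes entered this correlation, so it cannot show whether arrays of the same number were handled together. Promoter sequences are RefSeq's (GRCm38.p6). Alternatives covered the pseudocount, scaling, filter, probe sets, arrays used, trend and block.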

Additional observations from a re-analysis of the deposited data

How the results depend on the processing

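The 355 calls became 0 with a floor at 18 in place of the pseudocount, 7 without an intensity trend, 214 with the mean over probe sets and 229 with only the WT and GPR43 KO arrays. Leaving out 1 array at a time gave 71 to 530 calls, and 0 of the 355 changed sign. At the floor 485 genes had no spread within groups, whose part in the lost calls was not tested. The cause of the other changes was not tested. Other settings gave 280 to 432 calls. The split of higher against lower calls (120 and 235) moved by over 10 percentage points without the intensity trend (0 and 7), with a filter at the 60th percentile of level (140 and 140), without WT replicate 2 (28 and 94), and without GPR43 KO replicate 1 (23 and 93) or replicate 2 (9 and 62). Over all genes, the deviations of arrays with the same replicate number correlated at -0.08 to 0.03. Such a correlation, weak genes included, cannot show whether these arrays were handled together. The fit with a replicate block gave 285 calls (84 higher, 201 lower). Of the 98 called genes named in the report, 25 did not pass as the mean over probe sets, 23 with only the WT and GPR43 KO arrays and 10 with the block. Values that changed sign when an array was left out were those of Ffar2 (-2.50 to 0.46), Lpo (-0.12 to 2.71), Apoc2 (-1.03 to 0.90), Csf1r (-0.41 to 0.073), C1qa (-0.40 to 0.25), Mrc1 (-0.32 to 0.061) and Saa1 (-0.094 to 0.12). Saa1 was also at -0.17 with quantile normalization and -0.25 as the mean over probe sets. The number of arrays limits the precision, and weak signals near background carry no reliable fold.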

Other observations

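Ang4 and Mptx1, an antimicrobial ribonuclease and a secreted pentraxin of intestinal epithelium, followed the replicate number and not the genotype alone. Ang4 gave 8879 on replicate 1 and 1138 on replicate 2 of WT, and 50573 on the array labelled GPR43 KO replicate 1 and 7178 on replicate 2. Replicate 1 was 7.81-fold above replicate 2 in WT, 7.52-fold in GPR41 KO and 7.05-fold in GPR43 KO. Mptx1 gave 7686 and 2191 in WT and 36458 and 7901 in GPR43 KO, with replicate 1 above replicate 2 by 3.51-fold, 4.10-fold and 4.61-fold in WT, GPR41 KO and GPR43 KO. They were the 2 of 9096 genes above the median level that differed over 2-fold in the same direction between replicates 1 and 2 in all 3 groups. In limma without a block neither passed against WT (2.57, adjusted p = 0.365, and 2.04, adjusted p = 0.302). With the replicate block both passed at the same log2 fold changes (limma adjusted p = 0.000172 for Ang4 and 0.000909 for Mptx1). Both genes were picked for the replicate difference that the block removes, so these p-values are no independent test. The pattern was seen in the data and then described, and its cause was not tested.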
